A study of Drosophila melanogaster with 27 samples.

Results

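E(roDom)2033 is a mutation recovered as an enhancer of roughDominant (roDom), the dominant allele of the homeobox gene rough that stops the morphogenetic furrow of the Drosophila eye. The labels call the mutation uncharacterized and give it a mild stop-furrow phenotype. RNA from eye-antennal imaginal discs of wandering third-instar larvae was compared between homozygotes (3 arrays) and heterozygotes (2 arrays), which are 5 of the 27 arrays of the series, and the array titles defined zygosity. Each array hybridised amplified RNA of a few mutant discs, in one dye, together with a common reference from w1118 eye-antennal discs in the other dye, so that the reference cancels between the groups. w1118 larvae develop a normal eye apart from its pigment. The labels give neither the other chromosome of the heterozygotes nor the affected gene, so the mutation and whatever else differs between the chromosomes cannot be told apart. The labels conflict on 2 arrays: homozygote replicates 2 and 3 are homozygous by title and source name and heterozygous by their characteristics text. Replicates are numbered here in the order of the deposit, and nothing in the labels states that they came from separate crosses. The p-values therefore measure a spread between arrays, pooled within the groups of all 27 arrays and not taken from these 5 alone.

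In the eye disc a furrow sweeps from posterior to anterior. Cells ahead of it proliferate, and cells in and behind it are recruited as photoreceptors: Hedgehog signalling from differentiated cells drives the furrow forward, the proneural factor Atonal and Notch signalling select the R8 founder cells, and EGFR signalling then recruits the other cells of each cluster. A stop-furrow mutant is one in which that progression ends early and fewer photoreceptors form.

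All 9 eye disc markers (ey, toy, so, eya, dac, Optix, gl, elav and ato) were detected above background in the mutant channel of all 5 arrays. None of them was called, where 1.38% of all genes were called. Their log2 differences, homozygotes minus heterozygotes, ranged from -1.26 (eya) to 0.61 (ey), so the lack of a call does not show equal levels. Between 70.5% (heterozygote replicate 1) and 91.9% (heterozygote replicate 2) of probes were detected in the mutant channel. Log2 ratios correlated across probes with r = 0.409 to 0.680 among the homozygote arrays, 0.396 between the heterozygote arrays, and 0.162 to 0.516 between homozygote and heterozygote arrays. The highest between-group value joined homozygote replicate 2 and heterozygote replicate 2, which share the Cy5 dye and an image folder. Heterozygote replicate 2 correlated more with homozygote replicates 2 (0.516) and 3 (0.463), the arrays with conflicting labels, than with heterozygote replicate 1 (0.396). The highest value of all, 0.680, joined homozygote replicates 1 and 3, which share a scanning day and an image folder. What lay behind these values was not tested. Both groups hold both dyes (replicate 1 of each group carries the mutant RNA in Cy3), and no day of scanning holds both zygosities.

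At an adjusted p under 0.05 (limma, dye-adjusted, Benjamini-Hochberg over 16492 probes), 191 probes (1.16%) differed, 82 (0.497%) higher and 109 (0.661%) lower in homozygotes. Taken as genes, each by its brightest probe, 159 of 11510 (1.38%) were called: 65 (0.565%) higher and 94 (0.817%) lower, 87 of them by more than 2-fold. The homozygote and heterozygote arrays of all 159 did not overlap, which by itself fixes the direction within each dye and in the pair of 1 image folder. Groups also did not overlap for 3264 of all 11510 genes. An unadjusted p under 0.05 was reached by 2364 probes. The genes named below are the 15 highest and 15 lowest called genes with a symbol, together with called members of 31 gene lists. The lists were chosen with earlier results of these data known, so the share of calls in a list is no independent test. Where a list is set against the share of 1 direction, that direction was taken from the list's own calls. Of the 38 named genes that were called, 13 kept the call whichever of the 5 arrays was left out, 12 lost it in 1 or 2 of those fits and 13 in 3 or more.

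The calls rest on the titles. With homozygote replicates 2 and 3 read as heterozygous, as their characteristics say, 24 probes were called, of which 1 was among the 191, and none of the 38 named genes was called (adjusted p 0.563 to 0.980). That reading sets 1 homozygote array against 4 heterozygote arrays, with the lone array assumed to vary like those of the other groups, so the number of calls in it is no measure of which label is right.

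The calls also depend on how the day of scanning is treated. No day holds both zygosities of E(roDom)2033, so a fit with day as a fixed block takes the difference between days from the arrays of other mutants. In that fit 304 probes (1.84%) were called, 22 of them among the 191, and 11 of the 38 named genes kept their call: Vajk2, Vajk3, GstE6, Spn47C, E(spl)mgamma-HLH, Nrt, ru, Xport-A, E(spl)mdelta-HLH, EMC8-9 and lbm. With day as a random block 29 of the 38 kept it, and Arc2, rost, foi, Amy-p, RnrS, Dcp-1, Muc68Ca, Vap33 and HBS1 did not. With the 5 arrays fitted alone, which leaves fewer degrees of freedom, 3 of the 38 kept it. Where the fixed block ended a call, its log2 difference stands beside the gene below, with the adjusted p in parentheses.

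**Figure D1:**
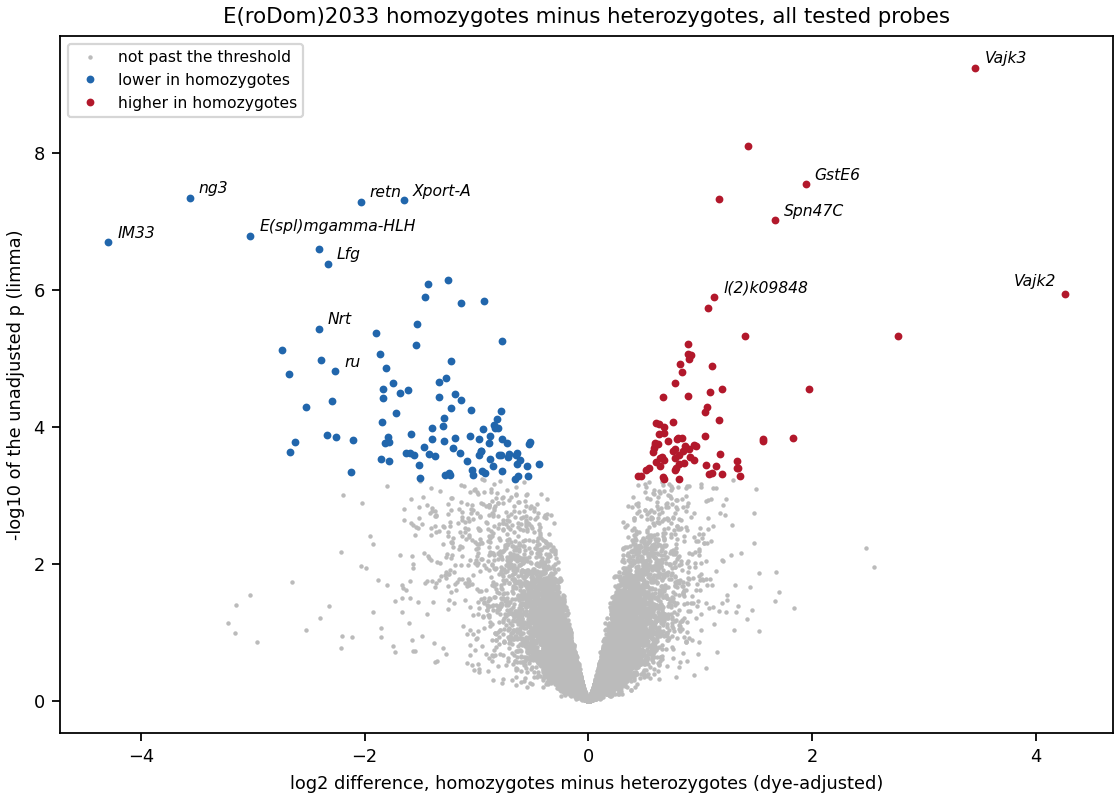
Each dot is 1 of 16492 probes: the x axis gives the dye-adjusted log2 difference of E(roDom)2033 homozygotes (3 arrays) minus heterozygotes (2 arrays), the y axis -log10 of the unadjusted limma p, and colour marks the 82 higher and 109 lower probes at an adjusted p under 0.05. Vajk2 and Vajk3 lie farthest right and IM33 and ng3 farthest left.

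Notch target genes of the Enhancer of split complex were among the largest reductions. E(spl)mgamma-HLH and E(spl)mdelta-HLH encode neighbouring basic helix-loop-helix repressors that Notch signalling switches on in and behind the furrow. For E(spl)mgamma-HLH the log2 ratio of mutant over reference was -3.81, -3.20 and -3.99 in homozygote replicates 1 to 3 and -0.68 and -0.65 in heterozygote replicates 1 and 2. All homozygote arrays were far below the reference, while both heterozygote arrays were moderately below it, and the difference was -3.02 ± 0.39 on the log2 scale (8.12-fold lower, adjusted p = 0.000300). E(spl)mdelta-HLH read -3.35, -2.12 and -2.65 in homozygote replicates 1 to 3 and -1.07 and -0.59 in heterozygote replicates 1 and 2, again without overlap, and fell by 1.90 ± 0.31 (adjusted p = 0.00302). Both calls held in every fit without 1 array. These are 2 of the 14 measured members of the list of E(spl) and Bearded complex genes, where 0.817% of all genes were called lower; the other 12 were not called, 12 of the 14 differences were below 0, and the list's median difference was -0.48 against 0.01 over all genes. None of the 15 measured Notch receptor, ligand and modifier genes was called (median -0.02, range -0.86 to 0.89), where 1.38% of all genes were called in either direction. The array holds double-stranded PCR products, which carry no strand and may cross-hybridise between close relatives such as these; that part was not tested.

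Of the 21 measured EGFR pathway genes, 2 were called, both lower, against 0.817% of all genes called lower: the protease that releases the ligand and a secreted feedback inhibitor. Roughoid (ru), a rhomboid protease that cleaves the EGFR ligand Spitz in the eye, read -2.60, -3.31 and -2.27 in the homozygotes and -0.09 and -0.84 in the heterozygotes. Heterozygote replicate 1 lay near the reference and heterozygote replicate 2 moderately below it. Every homozygote array was far lower, a difference of -2.26 ± 0.40 (4.80-fold, adjusted p = 0.00641). For argos (aos), the inhibitor that EGFR signalling induces, values were -2.53, -2.56 and -2.06 in the homozygotes and -0.64 and -1.39 in the heterozygotes, and the difference was -1.33 ± 0.25 (adjusted p = 0.0109). Argos has 3 probes and all 3 were called, at -1.53 to -1.27. Without heterozygote replicate 1 neither was called: ru was at -1.85 (adjusted p = 0.201) and aos at -1.06 (0.245), and aos was also not called without homozygote replicate 1 (-1.15, 0.0891) or with the day block, at -1.87 (0.0873). The other 19 EGFR pathway genes ranged up to 0.51 and the list's median difference was 0.05, close to that of all genes. Of the 21 differences 9 were below 0, those of ru and aos among them.

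Among 32 genes of photoreceptor and neuronal differentiation, 3 were called and all 3 were lower in homozygotes, against 0.817% of all genes called lower. Lozenge (lz), the Runx factor that primes later-born cells of each ommatidium, read -2.41, -2.67 and -2.74 in the homozygotes and -0.33 and -1.19 in the heterozygotes and differed by -1.79 ± 0.38 (adjusted p = 0.0256). Xport-A, a chaperone needed for rhodopsin and TRP channels to leave the endoplasmic reticulum of photoreceptors, read -2.34, -2.10 and -2.18 in the homozygotes and -0.75 and -0.42 in the heterozygotes, with 2 of the 3 homozygote arrays above background. Its difference was -1.65 ± 0.20 (3.13-fold, adjusted p = 0.000122), and the arrays within each group lay closer together than for lz. The third, neurotactin (Nrt), is an adhesion protein of axons and photoreceptor clusters. Nrt read -3.71, -2.61 and -3.56 in the homozygotes and -0.41 and -1.36 in the heterozygotes on its brightest probe, a difference of -2.41 ± 0.38 (adjusted p = 0.00276). The 3 other Nrt probes gave -0.40 to -0.23 and were not called, so the fall rests on 1 of 4 probes.

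Xport-A kept its call in every fit without 1 array. Without heterozygote replicate 1 Nrt was at -1.91 (adjusted p = 0.135) and lz at -1.53 (0.294). The call of lz also ended without homozygote replicate 1 (-1.76, 0.107) or homozygote replicate 3 (-1.79, 0.0743), and with the day block, at -2.11 (0.154). Over the whole list, 23 of 32 differences were below 0, with a median of -0.19. Of the 16 proneural and furrow genes measured none was called (median -0.27, 12 of 16 below 0), and of 30 axon guidance and adhesion genes only Nrt was, against 1.38% of all genes called in either direction. In whole-disc RNA, fewer cells of a type and less RNA per cell cannot be told apart, here and in every result that follows.

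Rough, atonal and hedgehog, the genes whose other mutants this series profiles, were not called. Atonal (ato), the proneural factor of R8, read -0.39, -0.36 and -0.40 in the homozygotes and -0.13 and -0.06 in the heterozygotes, a difference of -0.30 ± 0.17 (adjusted p = 0.444). Rough (ro), the homeobox gene whose dominant allele E(roDom)2033 enhances, differed by -0.29 ± 0.22 (adjusted p = 0.585), and by -0.18 without homozygote replicate 2. Hedgehog (hh), the furrow signal, differed by -0.04 ± 0.30 (adjusted p = 0.977), its arrays overlapped between the groups, and its sign turned in 5 alternatives. For ato and ro all homozygote arrays lay slightly below both heterozygote arrays; the groups likewise did not overlap for 3264 of all 11510 genes. No gene was called among the 14 of the Hedgehog pathway, 22 of the Dpp and Wingless pathways, 19 of retinal determination and anterior progenitors, or 21 of phototransduction. Of all genes 1.38% were called in either direction, so lists of this size can hold no call at that share.

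**Figure D2:**
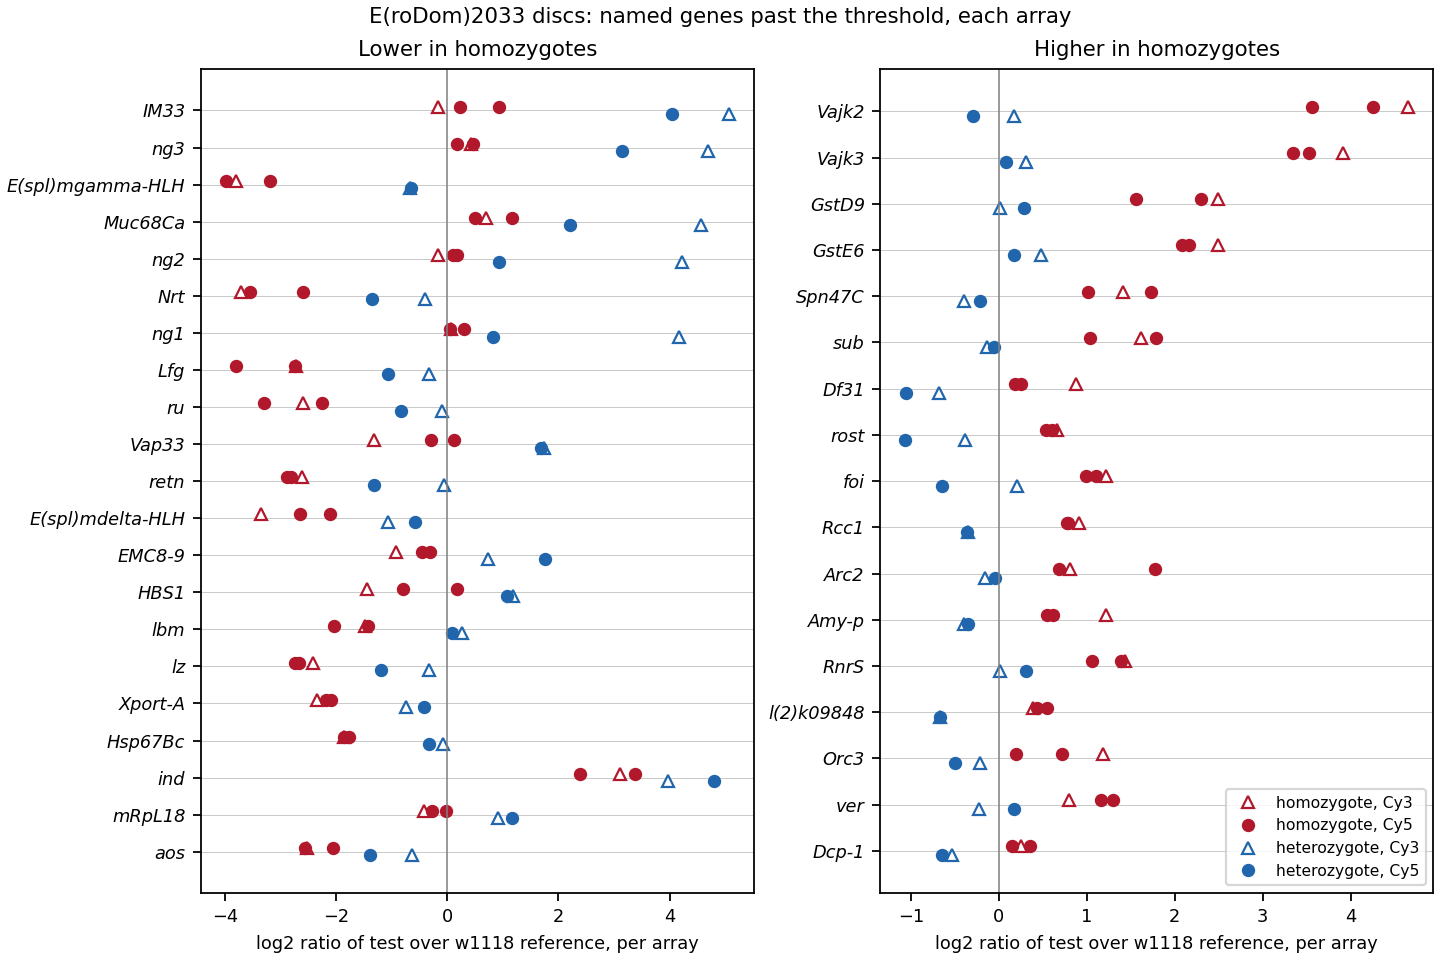
Each symbol is 1 array: the x axis gives its normalised log2 ratio of mutant over w1118 reference for the 38 named genes that were called, with homozygotes in red and heterozygotes in blue, Cy3 arrays as open triangles and Cy5 arrays as filled circles. The groups do not overlap for any gene drawn, as holds for every called gene, and heterozygote replicate 1 (Cy3) stands apart from replicate 2 for ng1, ng2 and Muc68Ca.

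Several other genes were low in homozygotes and closer to the reference in heterozygotes. Retained (retn), an ARID-domain transcription factor, read -2.62, -2.88 and -2.82 in the homozygotes and -0.07 and -1.31 in the heterozygotes, and the difference was -2.03 ± 0.24 (4.10-fold, adjusted p = 0.000122). Lifeguard (Lfg), a member of the Bax-inhibitor family of membrane proteins, read -2.73, -3.81 and -2.74 in the homozygotes and -0.34 and -1.07 in the heterozygotes and differed by -2.33 ± 0.32 (adjusted p = 0.000576). Both calls held without any 1 array. Late bloomer (lbm), a tetraspanin known from synapse formation, read -1.49, -2.03 and -1.44 in the homozygotes and 0.26 and 0.08 in the heterozygotes and differed by -1.85 ± 0.38 (adjusted p = 0.0202); it was not called without heterozygote replicate 1 (-1.68, 0.234) or homozygote replicate 2 (-1.63, 0.0515). Hsp67Bc, a small heat shock protein gene and the 1 called of 15 chaperone genes (0.817% of all genes were called lower), read -1.86, -1.78 and -1.86 in the homozygotes and -0.07 and -0.32 in the heterozygotes and differed by -1.63 ± 0.37 (adjusted p = 0.0308). Its groups stood well apart, yet it was not called in any fit without 1 array (-1.77 to -1.50, adjusted p 0.0511 to 0.287). With the day block the calls ended for retn, at -1.71 (0.127), Lfg, at -2.46 (0.0852), and Hsp67Bc, at -2.34 (0.0972).

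A different pattern held for 4 genes that were above the reference in heterozygotes and near or below it in homozygotes. The gene for Vap33, an endoplasmic reticulum membrane protein of contact sites, read -1.33, 0.11 and -0.30 in the homozygotes and 1.74 and 1.69 in the heterozygotes, a difference of -2.26 ± 0.48 (adjusted p = 0.0256). EMC8-9, a subunit of the membrane insertion complex of the same organelle, read -0.93, -0.31 and -0.46 in the homozygotes and 0.73 and 1.76 in the heterozygotes and differed by -1.86 ± 0.31 (adjusted p = 0.00457). HBS1, which acts in the rescue of stalled ribosomes, differed by -1.85 ± 0.42 (adjusted p = 0.0331). mRpL18, of the large mitochondrial ribosomal subunit, differed by -1.34 ± 0.24 (adjusted p = 0.00847). It was the 1 called of 62 mitochondrial ribosomal genes, a share of 1.61%. Of all genes 1.38% were called in either direction and 0.817% lower. The list's median was -0.17.

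Homozygote replicate 1 was the lowest array for all 4 of these genes. Vap33 was not called without either heterozygote array, homozygote replicate 1 or homozygote replicate 3 (-2.53 to -1.85 over the 5 fits, adjusted p up to 0.245), and HBS1 not without the same 4 arrays (-2.25 to -1.48, up to 0.302). mRpL18 was not called without heterozygote replicate 1 (-1.31, 0.135), and EMC8-9 not without heterozygote replicate 2 (-1.45, 0.0684). The day block left Vap33 at -1.29 (0.324), HBS1 at -1.18 (0.338) and mRpL18 at -1.21 (0.0565), none of them called. No gene was called among 91 cytoplasmic ribosomal protein genes (median -0.24) or 76 genes of the respiratory chain (median -0.16), against 1.38% of all genes.

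The gene ind, a homeobox gene that patterns the embryonic neuroectoderm, was high in both genotypes and less so in homozygotes. It read 3.11, 2.39 and 3.37 in the homozygotes and 3.97 and 4.81 in the heterozygotes, far above the reference on all 5 arrays, and the difference was -1.46 ± 0.21 (adjusted p = 0.00123). In roDom discs the mean log2 ratio of ind was 0.07 ± 0.04 (SD, n = 3) in homozygotes and -0.04 ± 0.08 (n = 2) in heterozygotes, and in ato1 discs -0.06 ± 0.17 (n = 3). The call for ind held without any 1 array and ended with the day block, at -1.06 (0.275).

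The 2 largest reductions among the named genes were those of IM33 and ng3. IM33, an immune-induced peptide gene, read -0.17, 0.23 and 0.93 in the homozygotes and 5.07 and 4.04 in the heterozygotes, a difference of -4.29 ± 0.56 (19.6-fold lower, adjusted p = 0.000336). The new glue genes ng1, ng2 and ng3 encode secreted proteins of the larval salivary gland, and ng3 read 0.42, 0.18 and 0.47 in the homozygotes and 4.69 and 3.15 in the heterozygotes, a difference of -3.56 ± 0.42 (11.8-fold lower, adjusted p = 0.000122). In both genes the homozygotes lay within 1 log2 unit of the reference and the heterozygotes more than 3 log2 units above it. Values of ng2 were -0.16, 0.18 and 0.10 in the homozygotes and 4.23 and 0.93 in the heterozygotes, a difference of -2.52 ± 0.49 (adjusted p = 0.0143). Those of ng1 were 0.06, 0.30 and 0.04 in the homozygotes and 4.16 and 0.83 in the heterozygotes, a difference of -2.33 ± 0.50 (adjusted p = 0.0256), and Muc68Ca, a mucin gene, read 0.69, 0.50 and 1.16 in the homozygotes and 4.57 and 2.21 in the heterozygotes and differed by -2.62 ± 0.57 (adjusted p = 0.0263). For these last 3 genes heterozygote replicate 1 was far above heterozygote replicate 2.

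Without heterozygote replicate 1 the difference shrank to -0.83 for ng2 (adjusted p = 0.0249), -0.66 for ng1 (0.245) and -1.31 for Muc68Ca (0.459). Without heterozygote replicate 2 it grew to -4.32, -4.10 and -4.01 in the same order. Without homozygote replicate 1 none of the 3 was called (adjusted p = 0.0873, 0.113 and 0.108), and without homozygote replicate 3 ng1 (0.0741) and Muc68Ca (0.0556) were not; Muc68Ca was also not called without homozygote replicate 2 (0.0586). IM33 and ng3 kept their calls in all 5 fits. With scanning day as a fixed block none of these 5 genes was called, and IM33 was at -2.33 (0.125), ng3 at -1.30 (0.377), ng2 at -2.41 (0.294), ng1 at -1.98 (0.346) and Muc68Ca at -0.27 (0.935).

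The net signal of 6 Sgs glue genes, the defining salivary gland markers, summed to 0.0170%, 0.0150% and 0.00942% of the net signal of the mutant channel in homozygote replicates 1 to 3 and to 0.0776% and 0.0898% in the heterozygotes. None of the 6 was called, and 5 of them were detected on all 5 arrays. Their median log2 ratio to the reference was -2.30, -2.59 and -2.98 in the homozygotes and -0.22 and -0.28 in the heterozygotes. Over the whole salivary gland list 3 of 12 genes were called, ng1, ng2 and ng3, against 0.817% of all genes called lower, with a median difference of -2.27 against 0.01 for all genes. Fat body markers summed to 0.0171%, 0.0135% and 0.0547% in the homozygotes and 0.137% and 0.0379% in the heterozygotes, with heterozygote replicate 1 highest, homozygote replicate 3 above heterozygote replicate 2, and none of 6 called. Salivary glands and fat body lie beside the discs in the larva, and the part of tissue carried over at dissection in these results was not tested. None of 22 listed antimicrobial and immune-induced genes, which do not include IM33, was called, against 1.38% of all genes.

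The cuticle-type genes Vajk2 and Vajk3 had the largest increases. They are neighbours in the gene order and encode small secreted proteins. Vajk3 read 3.92, 3.35 and 3.53 in the homozygotes and 0.31 and 0.08 in the heterozygotes. All 3 homozygote arrays were high and both heterozygote arrays lay close to the reference, and the difference was 3.46 ± 0.32 (11.0-fold higher, adjusted p = 9.48e-06). Vajk2 read 4.66, 3.56 and 4.25 in the homozygotes and 0.17 and -0.30 in the heterozygotes, with 1 of the 2 heterozygote arrays above background, and differed by 4.26 ± 0.63 (19.2-fold, adjusted p = 0.00123). The second Vajk2 probe differed by 1.50 ± 0.38 and was not called (adjusted p = 0.0598). In ato1 discs, which lack R8 cells, the mean log2 ratio was 4.08 ± 0.75 for Vajk3 and 3.95 ± 1.38 for Vajk2 (SD, n = 3), near the values of the homozygotes; that difference was not tested. Both calls held without any 1 array and with the day block, where Vajk2 was at 7.08 (0.00175). That value is larger than the 4.26 of the main fit and than the gap between any homozygote and heterozygote array. The day block takes the difference between days from the arrays of other mutants, so its size for Vajk2 is not read from these arrays alone. The other 18 genes of the cuticle, Vajk and disc growth factor list were not called (list median 0.49), and 0.565% of all genes were called higher.

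GstE6, GstD9 and Spn47C rose in homozygotes, each by more than 3-fold. GstE6, a glutathione S-transferase of the epsilon class, read 2.49, 2.16 and 2.08 in the homozygotes and 0.48 and 0.18 in the heterozygotes, a difference of 1.94 ± 0.22 (3.85-fold, adjusted p = 0.000122). GstD9, of the delta class, read 2.49, 2.29 and 1.56 in the homozygotes and 0.01 and 0.28 in the heterozygotes and differed by 1.97 ± 0.37 (adjusted p = 0.00958). The serpin gene Spn47C read 1.41, 1.02 and 1.73 in the homozygotes and -0.40 and -0.21 in the heterozygotes and differed by 1.67 ± 0.21 (adjusted p = 0.000198). For these 3 genes the heterozygotes lay within 0.48 log2 units of the reference and every homozygote array was above 1 log2 unit. GstE6 and Spn47C kept their calls without any 1 array, while GstD9 was not called without heterozygote replicate 1 (1.81, 0.183) or homozygote replicate 1 (1.77, 0.0826), nor with the day block, at 2.08 (0.113).

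Amy-p, an amylase gene, differed by 1.18 ± 0.27 (adjusted p = 0.0308) on its brightest probe and by -0.32 on its other probe, which was not called. Its call ended in 4 of the 5 fits without 1 array, those without either heterozygote array, homozygote replicate 1 or homozygote replicate 3 (0.95 to 1.30, adjusted p up to 0.256). Arc2, a capsid-forming relative of the neuronal gene Arc, differed by 1.19 ± 0.29 (adjusted p = 0.0455), with homozygote replicate 2 at 1.78 and the other homozygotes at 0.68 and 0.81. Arc2 was called in only 1 of those fits, that without homozygote replicate 3 (adjusted p = 0.0413), and was at 0.85 without homozygote replicate 2. With the day block its sign reversed, to -0.40 (0.548), and Amy-p was not called, at 1.34 (0.175).

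The lists of DNA replication and mitosis genes had median differences above 0, with few calls. Of 28 replication genes 2 were called, both higher, against 0.565% of all genes: Orc3, a subunit of the origin recognition complex, and RnrS, the small subunit of ribonucleotide reductase. Orc3 read 1.19, 0.19 and 0.72 in the homozygotes and -0.21 and -0.49 in the heterozygotes, a difference of 1.09 ± 0.20 (adjusted p = 0.0102). RnrS read 1.44, 1.06 and 1.39 in the homozygotes and 0.02 and 0.31 in the heterozygotes, a difference of 1.14 ± 0.27 (adjusted p = 0.0378). The list's median difference was 0.42, with 6 of 28 below 0, and its median log2 ratio per array was 0.51, 0.34 and 0.41 in homozygotes and 0.12 or less in heterozygotes. Of 24 mitosis genes 1 was called, against 0.565% of all genes called higher: sub, a kinesin of the central spindle, at 1.62, 1.04 and 1.79 in the homozygotes and -0.14 and -0.05 in the heterozygotes, with 1 of 2 heterozygote arrays above background and a difference of 1.56 ± 0.34 (adjusted p = 0.0261). The mitosis list's median was 0.29, with 3 of 24 below 0.

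Without heterozygote replicate 1 Orc3 was at 1.12 (adjusted p = 0.120), RnrS at 0.94 (0.367) and sub at 1.56 (0.226), none of them called. Without homozygote replicate 1 they were at 0.89 (0.0873), 1.09 (0.156) and 1.44 (0.135), likewise not called. RnrS and sub were also not called without homozygote replicate 3 (1.08 and 1.42), nor sub without heterozygote replicate 2 (1.55, 0.0985). The day block also ended all 3 calls, with Orc3 at 1.17 (0.127), RnrS at 0.93 (0.428) and sub at 1.33 (0.174).

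Other nuclear and cell biological genes rose. l(2)k09848 read 0.39, 0.55 and 0.44 in the homozygotes and -0.67 and -0.67 in the heterozygotes, with little spread within either group and a difference of 1.13 ± 0.17 (adjusted p = 0.00123). Rcc1, the exchange factor of the Ran GTPase, read 0.92, 0.77 and 0.79 in the homozygotes and -0.35 and -0.36 in the heterozygotes and differed by 1.19 ± 0.22 (adjusted p = 0.00958). Df31, a chromatin decondensation factor, differed by 1.40 ± 0.23 (adjusted p = 0.00315). Verrocchio (ver), which protects chromosome ends, read 0.80, 1.16 and 1.29 in the homozygotes and -0.23 and 0.17 in the heterozygotes and differed by 1.07 ± 0.16 (adjusted p = 0.00150). All homozygote arrays of these 4 genes lay above both heterozygote arrays, and l(2)k09848 kept its call in each fit without 1 array. Without heterozygote replicate 1 the other 3 were not called: Rcc1 was at 1.15 (0.150), Df31 at 1.30 (0.0860) and ver at 1.00 (0.0564). Rcc1 was also not called without homozygote replicate 1 (1.17, 0.0511). None of the 4 was called with the day block, which put l(2)k09848 at 0.95 (0.0865), Rcc1 at 1.19 (0.131), Df31 at 0.90 (0.0553) and ver at 1.07 (0.0632).

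The zinc transporter gene foi differed by 1.33 ± 0.31 (adjusted p = 0.0394) and rolling stone (rost), known from myoblast fusion, by 1.36 ± 0.33 (adjusted p = 0.0460). Dcp-1, an effector caspase and the 1 called of 23 cell death and JNK genes (0.565% of all genes were called higher), read 0.25, 0.35 and 0.14 in the homozygotes and -0.53 and -0.65 in the heterozygotes and differed by 0.86 ± 0.19 (adjusted p = 0.0272). None of these 3 was called in any of the fits without 1 array: foi ranged from 0.89 (without heterozygote replicate 2) to 1.75 (without heterozygote replicate 1), rost from 1.09 to 1.61 and Dcp-1 from 0.79 to 0.91, with adjusted p of at least 0.0661, 0.0801 and 0.0633. Nor were they called with the day block, at 0.51 (0.553), 0.71 (0.545) and 0.75 (0.227) in the same order. The median of the cell death list was -0.06. Lists with no call, where 1.38% of all genes were called in either direction, also included those of glia (11 genes), hemocytes (13), muscle (20), ecdysone response (17), basement membrane and integrins (16), antennal disc and head (17) and proteasome (34).

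**Figure D3:**
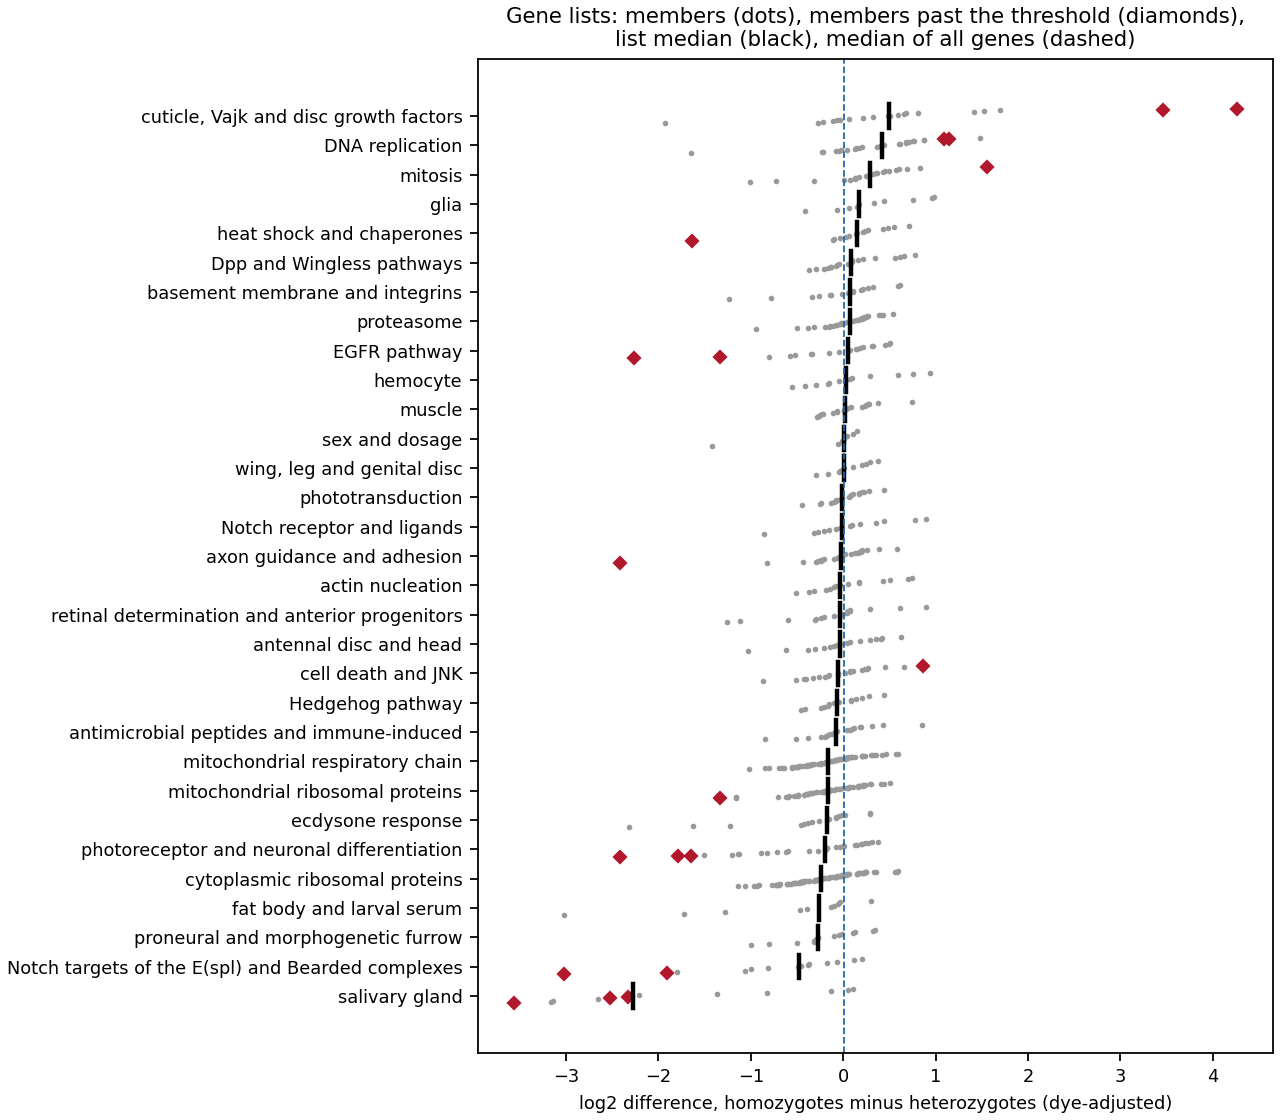
Each line of the y axis is 1 of 31 gene lists and each grey dot 1 measured member at its dye-adjusted log2 difference, homozygotes minus heterozygotes (x axis); red diamonds are called members, black bars list medians and the dashed line the median of all genes (0.01). The salivary gland list has its median at -2.27, the E(spl) and Bearded list at -0.48, and the replication and cuticle lists at 0.42 and 0.49.

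Called genes with neighbours called in the same direction formed 7 runs in the gene order of the reference annotation. The longest held 4 genes, all lower: CG14265, ng2, ng3 and ng1. The remaining runs were pairs, among them Vajk2 with Vajk3, E(spl)mdelta-HLH with E(spl)mgamma-HLH, RnrS with rho-7 and mthl4 with mthl3. No position is attached to the mutation in the labels, and cross-hybridisation between related neighbours was not tested.

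The same contrast of zygosity in roDom discs (3 homozygote and 2 heterozygote arrays) called 1 probe (0.00606%). Homozygote replicates 1 and 2 of roDom belong to the 5th array series, and the other roDom arrays and all E(roDom)2033 arrays to the 7th. Array series and zygosity can therefore not be fully told apart in the roDom contrast. The difference between the E(roDom)2033 and the roDom contrast, tested in the same fit, was past the threshold for 14 probes (0.0849%), 7 in each direction. Vajk3 was among them: its roDom difference was 0.05 ± 0.32 against 3.46 ± 0.32 here, and the difference between them was 3.41 ± 0.45 (adjusted p = 0.00298). The difference between contrasts was also above 0 for Spn47C (1.93 ± 0.29, adjusted p = 0.00646), GstE6 (1.86 ± 0.32, 0.0178), Orc3 (1.72 ± 0.29, 0.0178) and ver (1.35 ± 0.23, 0.0178). Their roDom differences were -0.26 ± 0.21, 0.09 ± 0.22, -0.63 ± 0.20 and -0.28 ± 0.16 in the same order, none of them called. On the lower side were Lfg (-2.86 ± 0.45, 0.00930), retn (-2.39 ± 0.34, 0.00492), ind (-1.59 ± 0.30, 0.0478) and Xport-A (-1.49 ± 0.28, 0.0446).

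The proneural gene achaete (ac) differed between the 2 contrasts by -1.70 ± 0.31 (adjusted p = 0.0380), although neither contrast called it: it was at -0.55 ± 0.22 in E(roDom)2033 (adjusted p = 0.246) and at 1.15 ± 0.22 in roDom (adjusted p = 0.205). The Notch targets did not pass this test: the difference between contrasts was -1.79 ± 0.55 for E(spl)mgamma-HLH (adjusted p = 0.238) and -1.88 ± 0.43 for E(spl)mdelta-HLH (adjusted p = 0.104). Homozygous roDom discs read -2.29 ± 0.27 (SD, n = 3) for E(spl)mgamma-HLH and heterozygous roDom discs -1.03 ± 0.08 (n = 2). For roDom homozygote replicate 2 the dye order in the file header goes against the labels; with that array turned by its header, 12 probes were called in place of 14, 7 of them shared. That turn ended 5 of the 10 named calls of this comparison (adjusted p in parentheses): ac was at -1.06 (0.413), Xport-A at -2.41 (0.196), Orc3 at 1.46 (0.0997), Lfg at -3.66 (0.0784) and ind at -1.53 (0.0655). The 7th array series alone leaves 1 roDom homozygote array. There the difference between contrasts was -1.05 for ac, 1.05 for ver, 1.73 for GstE6, 1.74 for Orc3, -2.68 for Lfg and -1.66 for ind. With 1 array in a group only sizes are given, and they do not show that these calls hold within the 7th array series.

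Vajk3, Spn47C and retn kept the call of this comparison in all 10 fits without 1 array. Lfg lost it without roDom heterozygote replicate 2 or E(roDom)2033 heterozygote replicate 1 (-3.26 to -2.49 over the 10 fits, adjusted p up to 0.0578). GstE6 (1.78 to 1.92, up to 0.0802), Orc3 (1.50 to 1.93, up to 0.0691) and ver (1.21 to 1.48, up to 0.0852) each lost it in 5 fits, among them those without either roDom heterozygote array or E(roDom)2033 heterozygote replicate 1. The remaining fits were those without roDom homozygote replicate 1 for GstE6 and ver, E(roDom)2033 homozygote replicate 1 for GstE6 and Orc3, and E(roDom)2033 homozygote replicate 3 for Orc3 and ver. The call of ind ended whichever of the 5 roDom arrays was left out, and without E(roDom)2033 heterozygote replicate 2 (-1.95 to -1.19, up to 0.154). Xport-A (-1.62 to -1.33, up to 0.158) and ac (adjusted p up to 0.158) lost it in 7 of the 10 fits each. Both kept it without E(roDom)2033 heterozygote replicate 2 or homozygote replicate 2, Xport-A also without roDom homozygote replicate 2 and ac also without roDom homozygote replicate 3. With scanning day or with the image folder as a fixed block, Vajk3, Spn47C and Xport-A kept it and the other 7 did not.

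**Figure D4:**
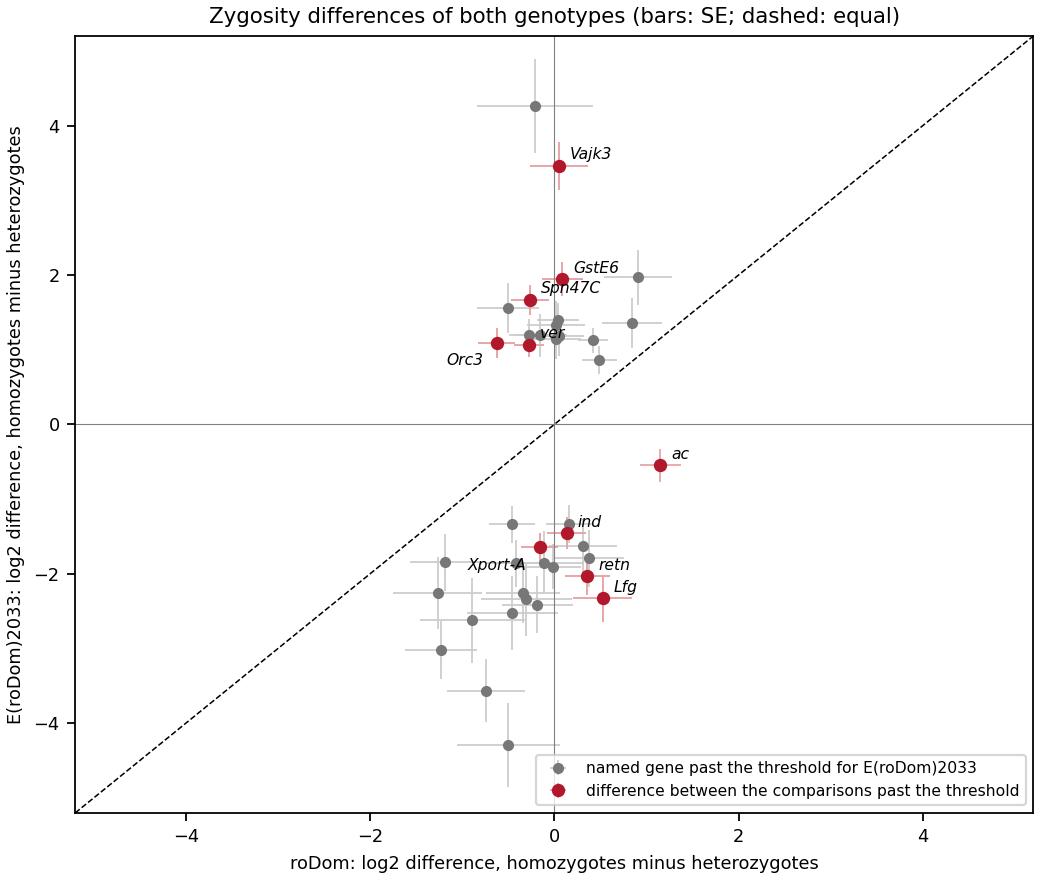
Each point is 1 named gene: the x axis gives its log2 difference of roDom homozygotes minus heterozygotes, the y axis that of E(roDom)2033, with SE bars; red points mark genes whose 2 differences differ at an adjusted p under 0.05, and the dashed line is equality. Vajk3, GstE6 and Spn47C lie high on the y axis and near 0 on the x axis.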

How the data were processed

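The members and the gene lists were chosen with earlier results of these data known. The deposited scanner files hold spot intensity in 2 colours (GenePix), with flags as a score and, per the file headers, saturated pixels as a percent of the spot; per the labels, the arrays carry PCR products and all RNA was linearly amplified. Image analysis settings and a genome build are not given in the sources used here. The deposited value table holds log2 ratios of the authors, found by comparison with the scanner values to run as reference over test. It served as an alternative only. Of its columns, 1 (Su519 replicate 3) was the exact negative of another (hh1 replicate 2) and was left out. Against the scanner values of its own array, r was -0.941 for Su519 replicate 3 and -0.137 for hh1 replicate 2. The column that did not match its array, hh1 replicate 2, thus stayed in the value table fits.

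Here the mean foreground was corrected for the median background with normexp (offset 50). Spots marked bad or missing (score at or under -75) were dropped, and each array was normalised by global loess with control spots at weight 0. Spots of a probe were averaged and each ratio was turned to test over reference by the labelled dye. Limma 3.58.1 in R 4.3.3 fitted 9 group means and a dye term to 27 arrays (17 residual degrees of freedom), so that all groups share 1 estimate of the spread; tests are two-sided, moderated and Benjamini-Hochberg adjusted over the 16492 probes measured on 2 or more arrays of both groups. A probe counted as above background when its signal exceeded the local background by 2 SD. Of 16498 probes, 12714 were named by locus tag, 34 by symbol and 2753 by synonym in RefSeq's Release 6 annotation, and 997 stayed unnamed; a gene with several probes is represented by its brightest. Named are the 15 highest and 15 lowest called genes with a symbol and the same sign in both dyes, called members of the lists (all where 5 or fewer), ro, ato and hh, the 5 highest and 5 lowest called genes of the second comparison, and members of runs of 3 or more neighbouring called genes; the pairs of neighbours were named after their values were seen. The number of arrays limits the precision. The fit was tested on simulated data. Alternatives covered dye, background, normalisation, filters, arrays, scan day, image folder (chosen after seeing the data) and the conflicting labels.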

Additional observations from a re-analysis of the deposited data

Results flagged for a closer look

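The zygosity contrast of E(roDom)2033 differed from that of roDom, by a test of the difference itself in the same limma fit, for 10 named genes. On the log2 scale the E(roDom)2033 contrast minus the roDom contrast was 3.41 for Vajk3, 1.93 for Spn47C, 1.86 for GstE6, 1.72 for Orc3 and 1.35 for ver. It was -2.86 for Lfg, -2.39 for retn, -1.70 for ac, -1.59 for ind and -1.49 for Xport-A. The 2 contrasts share no mutant array, and each array has the common w1118 reference in its other channel.

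The differences of ac had opposite signs in the 2 contrasts, at -0.55 ± 0.22 in E(roDom)2033 and 1.15 ± 0.22 in roDom, neither of them called. For ind the difference was -1.46 ± 0.21 in E(roDom)2033 and 0.13 ± 0.21 in roDom, and roDom discs of both zygosities lay near the reference, at 0.07 and -0.04.

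Each of these 10 results lost its call under at least 1 alternative. The call ended in 15 of 26 alternatives for ac, in 13 of 26 for ver and for Xport-A, in 13 of 24 for Orc3 and for ind, in 10 of 26 for GstE6, in 9 of 26 for Lfg, in 4 of 26 for retn, in 3 of 25 for Spn47C and in 1 of 25 for Vajk3, and no sign reversed.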

How the results depend on the processing

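No paired analysis was possible because the labels give no replicate numbers and the numbers used here are names only. For the E(roDom)2033 contrast, 191 probes (1.16% of those tested) became 70 (0.424%) with scale normalisation between arrays, 8 (0.0485%) with only the 5 arrays in the fit, 101 (1.45% of 6953) with the deposited value table, and 31 higher with 73 lower (0.631%) at 2-fold or more. Array weights gave 523 (3.17%), scan day as a fixed block 304 (1.84%, 22 of them shared with the 191) and as a random block 109 (0.661%), and the conflicting labels read as heterozygous 24 (0.146%, 1 shared). Leaving out 1 array gave 33 (0.200%, without heterozygote replicate 1, 25 shared) to 348 (2.11%, without heterozygote replicate 2), with 61 without homozygote replicate 1 and 78 without homozygote replicate 3. The image folder as a block, chosen after seeing the data, gave 190, of which 93 were shared; it kept 30 of 38 named calls and scan day as a fixed block kept 11. Background, print-tip loess, the dim probe filter, the stricter score limit, no dye term and the 7th array series alone gave 137 to 269. Of the calls 42.9% were higher in homozygotes, against 29.8% at 2-fold or more, 32.7% in the value table, 52.6% with the image folder as a block, 95.8% with the conflicting labels and 14.7% without heterozygote replicate 2. The second comparison, 14 probes (0.0849%), held 6 (0.0364%) without the dye term, 27 (0.164%) with print-tip loess, 8 (0.0485%) with scale normalisation, 3 (0.0182%) with only the compared arrays, 6 (0.104%) with the value table, 77 (0.467%) with array weights, 120 (0.728%) with scan day as a fixed block and 8 (0.0485%) with the image folder. Without 1 array it held 7 (0.0424%, without roDom homozygote replicate 1) to 219 (1.33%, without E(roDom)2033 heterozygote replicate 2), and with the conflicting labels 16, none shared. The sign of hh reversed with scale normalisation (0.0067), the value table (0.22) and the image folder (0.032), and it ranged from -0.31 to 0.21 without 1 array; Arc2 reversed with scan day as a fixed block (-0.40). The 5 arrays alone leave fewer degrees of freedom and the value table fewer probes. What moved the counts was not tested for any alternative.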
